A study of Homo sapiens with 12 samples.

Results

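The genes described here lie on the short arm of human chromosome 10. They are all genes with probes whose start lies below 39.8 Mb (GRCh38), other than IDI1, HSPA14, BMI1, GATA3, PFKP, PFKFB3, MCM10 and DNAJC1, which were left out by the rule. This gave 157 members of 18646 genes on the array, of 165 genes on the arm. The arm was chosen from the mean log2 ratio of its genes in these same arrays, so the members' shift, their counts of calls and the place where the shift ends are descriptions with no test of their own. The difference between both times is the comparison that did not enter the choice.

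The RNA was from NT2/D1 (NTERA2), a line of human embryonal carcinoma cells that retinoic acid drives to differentiate. Cells whose short hairpin RNA targets ZRF1, the product of DNAJC2, were set against cells with a random hairpin, in culture without retinoic acid (0 h) or after 3 h in 0.01 µM retinoic acid. There were 12 Agilent 2-colour arrays, each with knockdown RNA and control RNA of 1 time, from 3 biological replicates per time and, for each replicate, a forward array (knockdown in Cy5) and a dye-swapped array. Every ratio therefore compares the knockdown line with the control line, and both lines carry a hairpin. The sources used here do not say whether the lines are clones. The characteristics number the knockdown line from shZRF1 to shZRF6 while the titles give 1 name, and all were treated as 1 line. In such a design, an effect of the hairpin and any difference in DNA between the lines cannot be told apart, and DNA was not measured.

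A chromosome arm holds genes of unrelated function that share a DNA molecule, and the RNA made from an arm is known to follow, in part, the number of copies of that arm in the cell. Embryonal carcinoma lines are known to carry abnormal chromosome sets. ZRF1 is a chromatin factor and a ribosome-associated chaperone that binds ubiquitinated histone H2A and is known to displace Polycomb complexes during retinoic acid differentiation. Genes read from CpG-rich promoters are, as a class, expressed more widely across tissues than genes with CpG-poor promoters.

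The promoters of 2 pairs of neighbouring members are shown because the members of a pair lie close together, differ in promoter class and differ in ratio. They are the 2 separate pairs of neighbours of different class with the largest difference in mean log2 ratio, and so were chosen by their values. Each line gives 300 bases from RefSeq (GRCh38.p14), 5′ to 3′ on the gene's strand, from 250 bases before the annotated start, with every CG dinucleotide in capitals. CG reads the same on both strands. FAM107B (chr10:14774848-14775147, minus strand) and CDNF (chr10:14837988-14838287, minus strand) form the first pair, and GJD4 (chr10:35605091-35605390, plus strand) and FZD8 (chr10:35642247-35642546, minus strand) the second.
FAM107B: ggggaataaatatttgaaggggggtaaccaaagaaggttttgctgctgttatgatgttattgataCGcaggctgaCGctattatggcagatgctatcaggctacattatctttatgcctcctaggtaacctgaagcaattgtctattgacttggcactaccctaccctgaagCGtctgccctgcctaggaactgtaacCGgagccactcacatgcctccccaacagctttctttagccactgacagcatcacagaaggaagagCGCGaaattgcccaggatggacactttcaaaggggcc
CDNF: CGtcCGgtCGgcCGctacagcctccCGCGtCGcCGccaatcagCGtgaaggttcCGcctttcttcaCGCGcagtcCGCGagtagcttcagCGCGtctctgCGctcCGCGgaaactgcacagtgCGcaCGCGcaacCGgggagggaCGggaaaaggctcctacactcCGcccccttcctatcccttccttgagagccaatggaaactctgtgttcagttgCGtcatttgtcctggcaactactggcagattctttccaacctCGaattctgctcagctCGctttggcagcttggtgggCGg
GJD4: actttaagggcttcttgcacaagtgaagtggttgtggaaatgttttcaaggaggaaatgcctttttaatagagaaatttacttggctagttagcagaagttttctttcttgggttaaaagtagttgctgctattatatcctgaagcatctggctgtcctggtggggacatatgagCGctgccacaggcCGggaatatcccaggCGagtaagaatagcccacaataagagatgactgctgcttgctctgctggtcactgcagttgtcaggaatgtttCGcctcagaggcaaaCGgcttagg
FZD8: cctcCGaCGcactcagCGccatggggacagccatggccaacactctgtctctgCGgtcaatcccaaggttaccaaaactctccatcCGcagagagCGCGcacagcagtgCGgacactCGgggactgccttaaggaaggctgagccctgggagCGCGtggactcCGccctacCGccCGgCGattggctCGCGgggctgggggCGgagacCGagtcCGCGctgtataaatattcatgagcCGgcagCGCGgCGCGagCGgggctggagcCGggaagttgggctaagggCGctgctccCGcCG

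FAM107B had 6 CG dinucleotides in this window, a GC content of 48.3% and an observed over expected CG ratio of 0.342, and its mean log2 ratio of knockdown over control was -0.45. CDNF, which encodes a secreted neurotrophic factor, had 29 CG dinucleotides, a GC content of 61.0% and an observed over expected ratio of 1.05, and its mean log2 ratio was -0.01. GJD4, which encodes a connexin, had 5 CG dinucleotides and a mean log2 ratio of -0.02. FZD8, which encodes a Frizzled receptor for Wnt ligands, had 31 CG dinucleotides and a mean log2 ratio of -0.45. The low member had the CG-poor promoter in the first pair and the CG-rich promoter in the second. Each class rests on a single annotated start per gene, and the start used in these cells was not measured.

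The target of the hairpin, DNAJC2, was lower in the knockdown on all 12 arrays. Its log2 ratios at 0 h were -0.59, -0.61 and -0.55 on the forward arrays and -0.57, -1.41 and -0.49 on the swapped arrays of replicates 1 to 3. At 3 h they were -2.73, -0.50 and -0.66 on the forward arrays and -0.51, -0.39 and -0.97 on the swapped arrays. Of the arrays, 3 had wider ratios than the rest. They were the swapped array of 0 h replicate 2, the forward array of 3 h replicate 1 and the swapped array of 3 h replicate 3. Between the percentiles 1 and 99 their genes spanned 1.48, 2.59 and 1.03, against 0.70 to 0.82 on the other arrays. These are called the wide arrays, and results are given with and without them. The fit without them took each remaining array as its own sample, with a term for dye. Both arrays of a replicate then counted separately, so its counts and adjusted p-values cannot be set beside those of the main fit. Of the embryonal carcinoma markers POU5F1, NANOG, LIN28A and DPPA4, none passed the limma threshold on average over both times, with log2 ratios from -0.08 to 0.02. The average hides opposite values of POU5F1, 0.17 at 0 h and -0.20 at 3 h. TDGF1, also on that list, is not given here. Of 5 fibroblast markers, LUM (0.24) and THY1 were higher and COL1A1 (-0.25) was lower, while COL1A2 and COL3A1 did not pass. The files hold ratios and no levels, so the labelled cell type could not be checked against the level of its markers.

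The short-arm members sat below the rest of the genes on every array. On the forward arrays of 0 h replicates 1 to 3 the median log2 ratio over members was -0.10, -0.07 and -0.08, and on the swapped arrays it was -0.14, -0.18 and -0.11. At 3 h the medians were -0.10, -0.06 and -0.08 on the forward arrays and -0.14, -0.08 and -0.11 on the swapped arrays. All 12 medians were below 0, and within each replicate the swapped array was the lower one. Between 110 and 127 of the 157 members were below 0 on an array (70.1% to 80.9%), against 40.3% to 51.6% of the genes off the arm. The long arm of the same chromosome, with 546 genes, had medians from 0.00 to 0.03 on the same arrays.

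**Figure D1:**
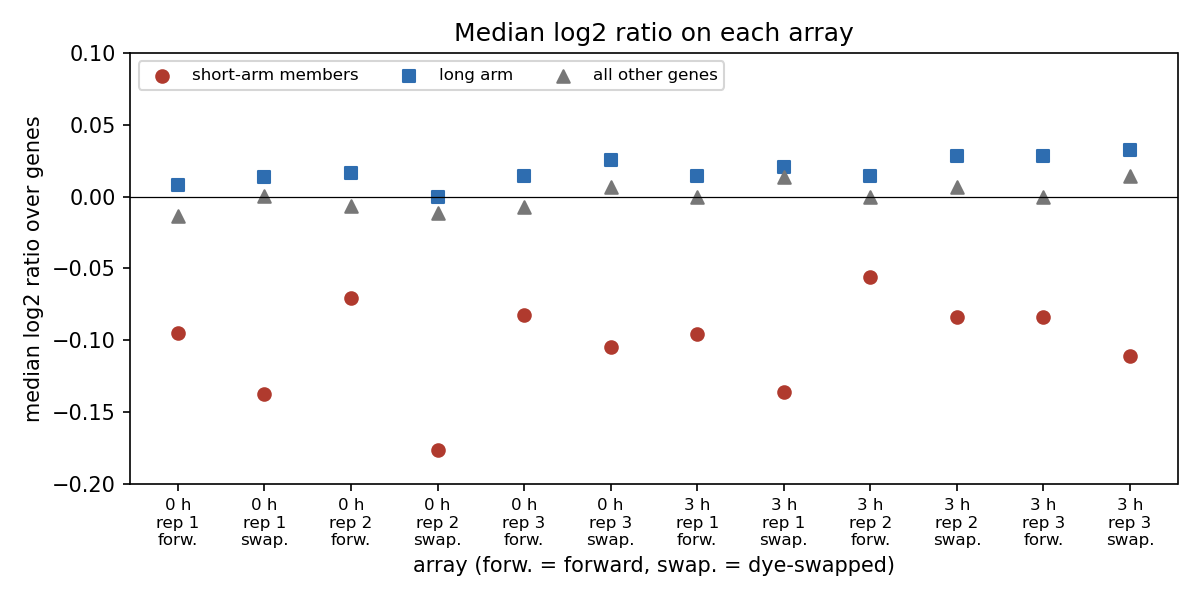
Median log2 ratio of knockdown over control (vertical axis) on each of the 12 arrays (horizontal axis), for the 157 short-arm members (circles), the 546 long-arm genes (squares) and all genes off the short arm (triangles). The circles lie between -0.18 and -0.06 on all 12 arrays, and the long-arm squares between 0.00 and 0.03.

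With both arrays of a replicate averaged, the member medians were -0.12, -0.15 and -0.10 for 0 h replicates 1 to 3 and -0.12, -0.08 and -0.11 for 3 h replicates 1 to 3. The median of the fitted log2 ratios was -0.13 at 0 h, a ratio of 0.917, with an SD of the replicates' medians of 0.0246 (n = 3). At 3 h it was -0.09, a ratio of 0.939, with an SD of 0.0222 (n = 3). Over both times it was -0.11, a ratio of 0.929, with the middle 50% of members between -0.22 and -0.01, and 128 members (81.5%) were below 0. Genes off the short arm had a median of 0.00 with 49.3% below 0, and the long arm a median of 0.02 with 34.1% below 0. Without the wide arrays the member medians were -0.11 at 0 h, -0.09 at 3 h and -0.10 over both times. The 23 other chromosomes had medians from -0.02 to 0.05 over both times. These are medians of whole chromosomes, whose arms were not taken separately, so they are not a like comparison with 1 arm.

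The shift was small for a single gene and shared by many. Of the 157 members, 81 had a mean log2 ratio under -0.1, against 9.91% of all genes. There were 50 members under -0.2 (2.77% of all genes) and 13 under -0.3 (0.992% of all genes). Signs repeated across replicates: 89 members were below 0 in 6 of 6 replicates (13.3% of all genes) and 4 were above 0 in 6 of 6 (14.1% of all genes). The other 64 had mixed signs or a replicate value of 0. On all 12 single arrays, 56 members were below 0 (4.61% of all genes). The averages of the forward and of the swapped arrays were both below 0 for 97 members (22.9% of all genes) and of opposite sign for 49 members (53.9% of all genes).

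The members that moved were spread along the whole arm, and medians past the centromere were near 0. In bins of 5 Mb from the telomere, the median log2 ratio of the members over both times was -0.09 from 0 to 5 Mb, -0.10 from 5 to 10 Mb and -0.17 from 10 to 15 Mb. It was -0.05 from 15 to 20 Mb, -0.12 from 20 to 25 Mb and -0.09 from 25 to 30 Mb. It was -0.20 from 30 to 35 Mb and -0.12 from 35 Mb to the limit of the arm. All 8 bins of the arm were below 0, each with 13 to 25 members. Past the centromere the bins from 40 to 60 Mb had medians of 0.00, 0.01, 0.00 and 0.04.

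A running mean over 15 neighbouring genes, which includes the 8 left-out genes, was below 0 in 158 of 158 windows centred on the short arm. The lowest value was -0.21, at ITGB1, the beta subunit of many integrins, and the highest was -0.01, at CUBN, a receptor for vitamin uptake. Without the left-out genes it was below 0 in 150 of 150 windows, over the same range. On the long arm it was below 0 in 82 of 539 windows and ran from -0.04 to 0.08.

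**Figure D2:**
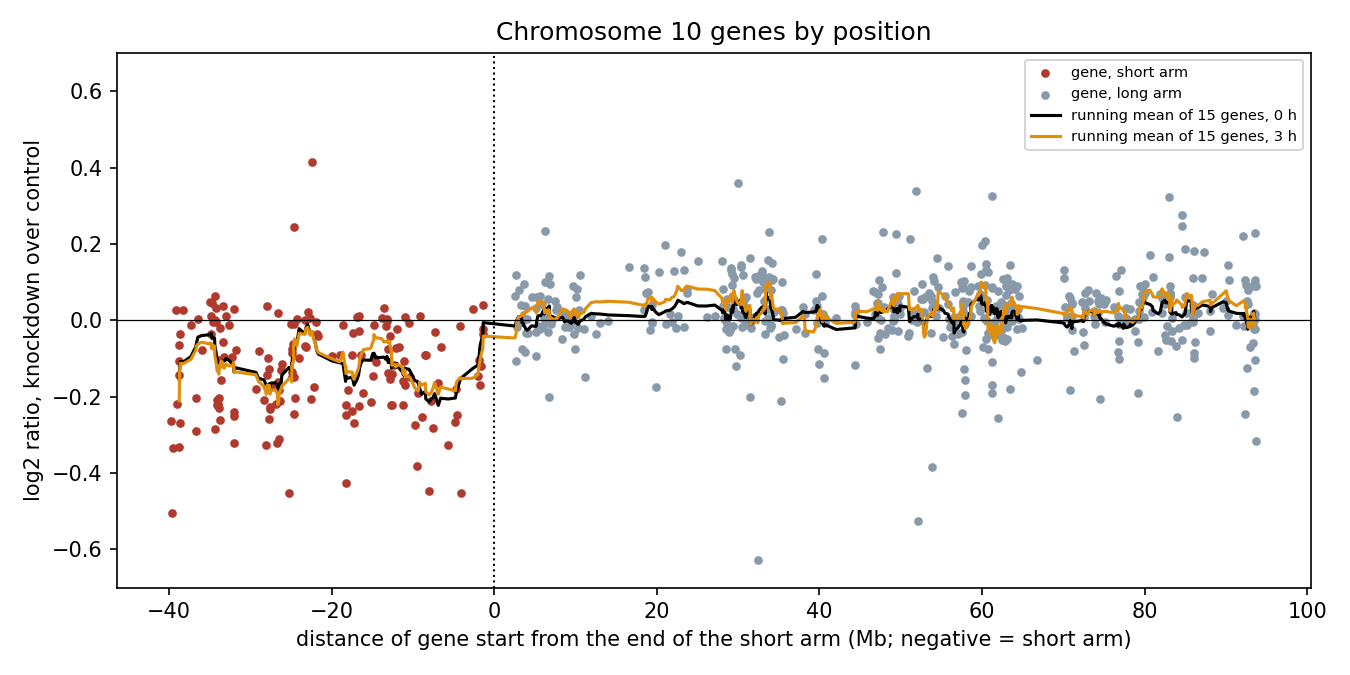
Log2 ratio of knockdown over control averaged over 6 replicates (vertical axis) for each gene of chromosome 10 (points) against the distance of its start from the end of the short arm in Mb (horizontal axis, negative on the short arm), with the running mean of 15 genes at 0 h and at 3 h. Both lines run below 0 on most of the short arm and near 0 on the long arm, and 2 short-arm genes, PPIAP30 and ST8SIA6-AS1, stand well above 0.

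The single step that best divided the genes of chromosome 10, in order of start and with at least 10 genes on each side, fell after ZNF37A (38.09 Mb) and before HSD17B7P2 (38.36 Mb). The mean log2 ratio was -0.13 to the left and 0.02 to the right, a step of -0.15 that took up 27.0% of the variance between the genes. In 0 h replicates 1 to 3 the step fell at the same place, with sizes of -0.12, -0.18 and -0.12. In 3 h replicates 1 and 2 it fell after LINC00999 (38.43 Mb), the last member before the centromere, with sizes of -0.21 and -0.11, and in 3 h replicate 3 after SEPTIN7P9 (38.38 Mb), with a size of -0.15. On the 12 single arrays it fell between 38.01 and 38.43 Mb. The forward arrays placed it at 38.36 Mb at 0 h and 38.43 Mb at 3 h, and the swapped arrays at 38.09 Mb at both times. These places differ by at most 4 genes, and next to them lies a stretch of the centromere with no measured gene, from LINC00999 to LOC441666 at 42.33 Mb. Without the wide arrays the step fell after SEPTIN7P9 at 38.38 Mb, and among genes measured by 1 probe after FZD8 at 35.64 Mb.

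**Figure D3:**
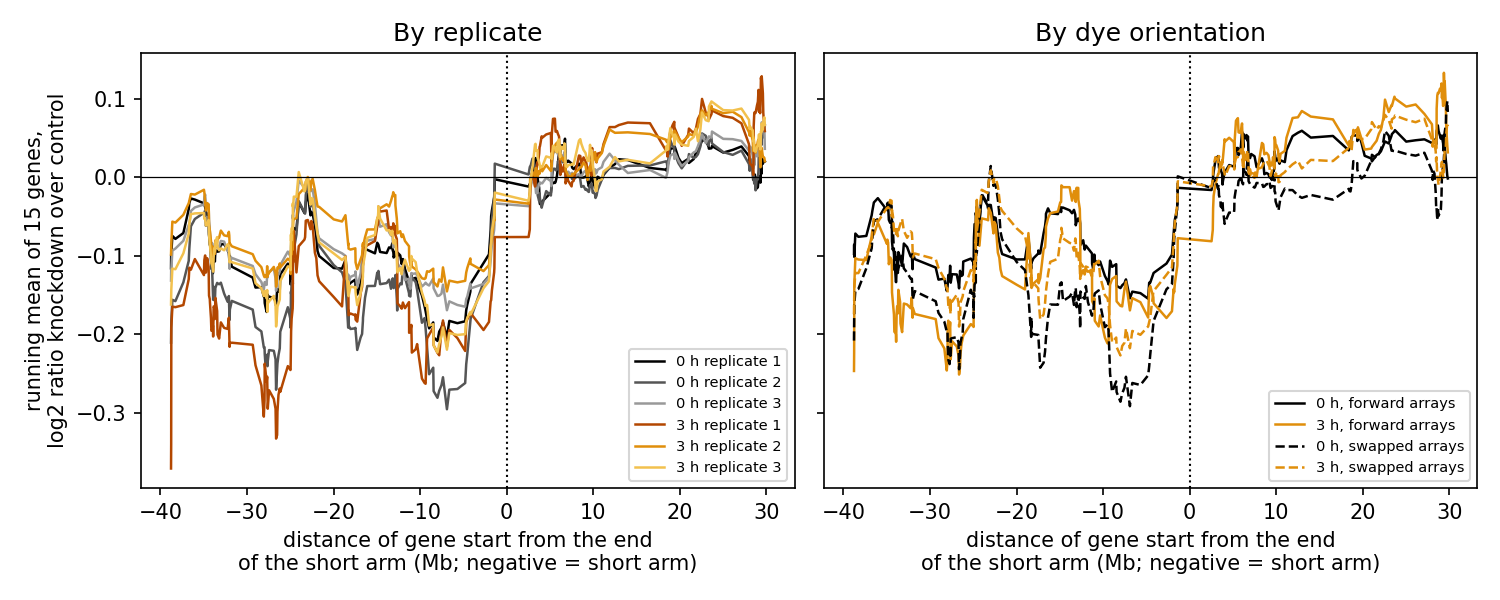
Running mean of 15 genes of the log2 ratio (vertical axis) against distance from the end of the short arm in Mb (horizontal axis, negative on the short arm), for each of the 6 replicates (left) and for forward and swapped arrays at each time (right). The lines lie below 0 along most of the short arm and return towards 0 at the end of the arm in every replicate and both orientations.

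Within the short arm no second step was stable. The best division fell after WDR37 (1.06 Mb), with means of -0.22 before and -0.12 after, and took up 3.63% of the variance. Without the wide arrays it fell after LYZL1, with means of -0.09 before and -0.14 after.

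The genes next to the end of the arm are given singly. ZNF248, ZNF25, ZNF33A and ZNF37A encode KRAB zinc finger proteins, a family of DNA-binding factors many of which silence transposons. The log2 ratios of ZNF37A were -0.11, -0.10 and -0.15 in 0 h replicates 1 to 3 and -0.13, -0.10 and -0.13 in 3 h replicates 1 to 3. Those of ZNF33A were -0.15, -0.19 and -0.14 at 0 h and -0.22, -0.13 and -0.19 at 3 h. ZNF248 had -0.13, -0.12 and -0.15 at 0 h and -0.18, -0.15 and -0.14 at 3 h. All 6 replicates were below 0 for each of these genes, and the times overlapped.

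Just inside the limit of the rule, the pseudogenes HSD17B7P2 and SEPTIN7P9 and the long non-coding RNA LINC00999 had mean log2 ratios of -0.02, -0.04 and 0.04. HSD17B7P2 was above 0 in 0 h replicates 2 (0.17) and 3 (0.09) and in 3 h replicate 2 (0.06), and below 0 in 0 h replicate 1 (-0.02) and 3 h replicates 1 (-0.22) and 3 (-0.22). LINC00999 was likewise of both signs, from -0.25 to 0.24. Each of these 3 genes was measured by 1 probe. The 26 members that are not protein-coding had a median of -0.01, so these 3 genes do not place the end of the shift. Just outside the limit, LOC441666 was at 0.06, LINC00839 at 0.12 and ZNF37BP, a copy of ZNF37A beyond the centromere, at -0.11. The sequences of ZNF37A and ZNF37BP, and of ZNF33A and ZNF33B (-0.02), are near-identical copies, as are pseudogenes and their parents, so the probes may not keep them apart and these values are uncertain.

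**Figure D4:**
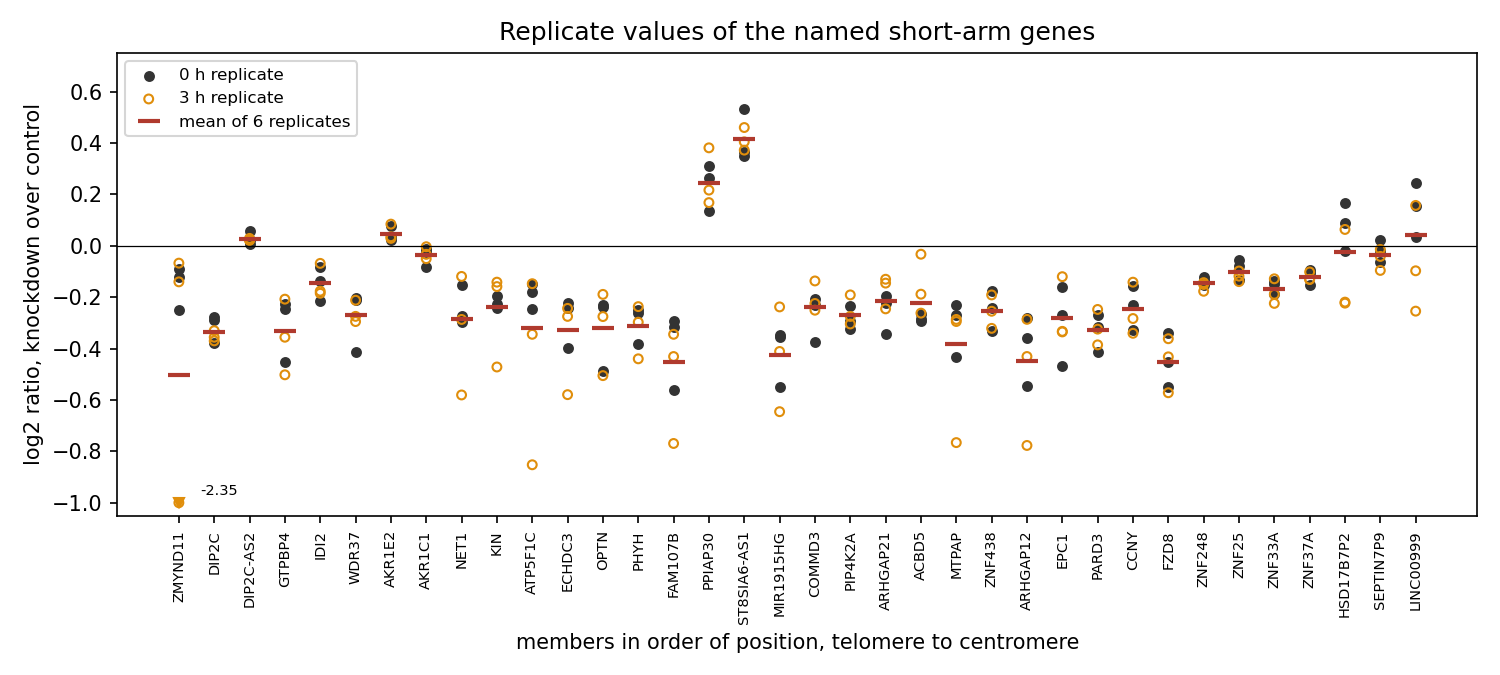
Log2 ratios of knockdown over control (vertical axis) for the 36 named members in order of position from telomere to centromere, with 0 h replicates as filled points, 3 h replicates as open points and red bars for the mean of 6 replicates. The mark labelled -2.35 is ZMYND11 in 3 h replicate 1, whose value lies below the axis range and is drawn near its lower edge, and PPIAP30 and ST8SIA6-AS1 are the members with all replicates well above 0.

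Calls by limma, at an adjusted p under 0.05 over all 18646 genes, are given with their background and nothing is read from them. At 0 h, 51 members were lower (3.89% of all genes were) and 2 higher (2.92%). Without 0 h replicate 1, 2 or 3 the lower members at 0 h numbered 0, 2 and 2. Lower genes on the whole array then numbered 12, 33 and 34. Without 3 h replicate 1 they numbered 78 of 1347 lower genes, without 3 h replicate 2 30 of 391, and without the wide arrays 89 of 1833, against 51 of 726 with all arrays. At 3 h, 58 members were lower (5.77%) and 2 higher (6.84%), and without 0 h replicate 1, 0 h replicate 3, 3 h replicate 2 or 3 h replicate 3 the lower members numbered 28, 29, 23 and 26, of 401, 415, 268 and 598 lower genes, against 58 of 1075 with all arrays. With 3 h fitted alone limma called 0 members and 0 genes lower. On average over both times, 86 members (54.8%) were lower (10.7%), 2 were higher (10.8%) and 69 passed neither way. All 86 were also lower without the wide arrays, where 99 members of 2938 lower genes were, against 86 of 1992 with all arrays. That fit counted single arrays as samples, so the counts without the wide arrays are not a like comparison. At both times separately, 42 members were lower (2.67%) and 2 higher (2.51%). On the long arm, 5.68% of genes were lower and 19.4% higher on average over both times.

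The members did not take part evenly, and the class of the promoter went with their ratio. A promoter was found in RefSeq for 137 of the 157 members. Each gene was classed from a single annotated start, and its other starts were not examined. A promoter was called CpG-rich at a GC content of at least 50% and an observed over expected CG ratio of at least 0.6 in its 300 bases, which held for 46.9% of the 27305 promoters in the table. These are not limited to genes of the array, where 9690 genes had a CpG-rich promoter and 4917 another. The 96 members with a CpG-rich promoter had a median log2 ratio of -0.16 over both times, and 88 of them were below 0. The 41 members with another promoter had a median of -0.04, and 29 were below 0. Off the arm, 4764 of 9589 genes with CpG-rich promoters and 2332 of 4875 with other promoters were below 0. The 20 members with no promoter sequence used had a median of 0.00. Lower calls were made for 67 of the CpG-rich members (69.8%, against 1161 of all 9690 genes with such promoters) and for 16 of the others (39.0%, against 398 of 4917 genes, or 8.09%). Off the arm the median was 0.00 in both classes, and the median absolute log2 ratio was 0.04 for CpG-rich promoters and 0.03 for the others, so ratios also spread more widely in the CpG-rich class elsewhere. Whether a gene was above background could not be seen from the ratios, and the part of the level of expression in this difference was not tested.

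**Figure D5:**
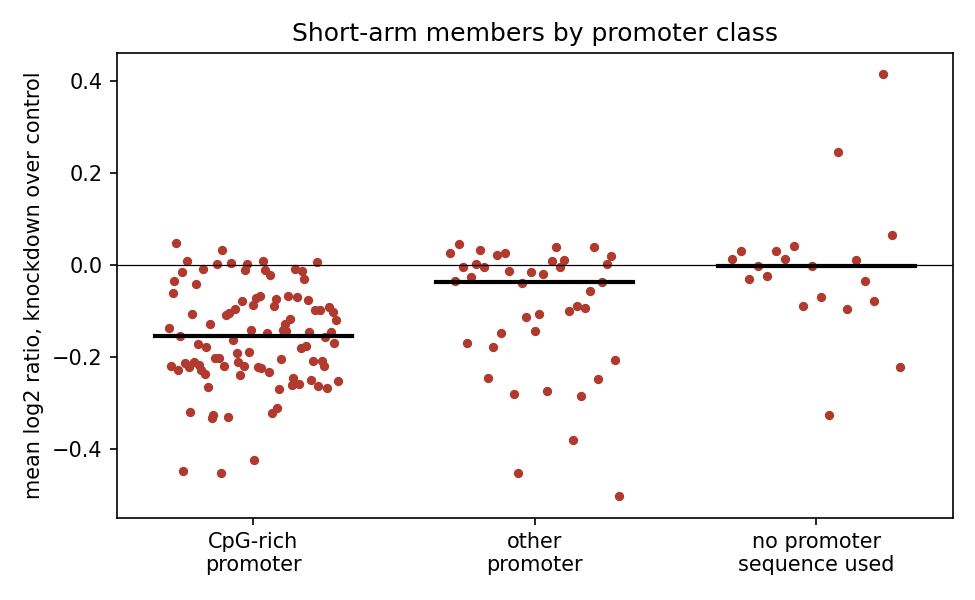
Mean log2 ratio of knockdown over control (vertical axis) of each short-arm member, by promoter class (horizontal axis). The 96 members with CpG-rich promoters have a median of -0.16, the 41 with other promoters -0.04 and the 20 with no promoter sequence used 0.00.

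Protein-coding members and the rest differed in the same way. The 131 protein-coding members had a median log2 ratio of -0.14 and 83 lower calls (11.2% of all protein-coding genes were lower). The 26 other members, mostly long non-coding RNAs and pseudogenes, had a median of -0.01 and 3 lower calls (6.19%). The members were measured by 256 probes, 91 members by 1 probe and 66 by 2 or more. In 59 of those 66 every probe was below 0, in 5 the probes had both signs and in 2 every probe was above 0. Among the 5 was IDI2, with probe means of -0.30 and 0.01. The share of such probe signs over all genes is not given here, and the arm was chosen by its genes' ratios. Between pairs of replicates, Pearson's r across the members ran from 0.42 to 0.85 with a median of 0.73 over 15 pairs, against a median of 0.48 across the other genes. Genes are not independent replicates, so these are descriptions.

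Among the signalling genes, FZD8 was the lowest. It had log2 ratios of -0.34, -0.55 and -0.45 in 0 h replicates 1 to 3 and -0.57, -0.36 and -0.43 in 3 h replicates 1 to 3. All values were below 0 and the times overlapped, with a mean of -0.45 ± 0.04 (SE, n = 6, limma adjusted p = 0.00122), a ratio of 0.731, and -0.38 without the wide arrays. NET1, a guanine nucleotide exchange factor, had a mean of -0.29 and a value of -0.58 in 3 h replicate 1 against -0.30 to -0.12 in the others. Its mean was -0.18 without the wide arrays, and its call was lost without 0 h replicate 1 or 2. PIP4K2A, a phosphoinositide kinase, had a mean of -0.27 and values from -0.32 to -0.19. In the signalling list of 11 members, 6 were lower over both times (10.7% of all genes and 54.8% of all members). None was higher (10.8% of all genes), 6 were below 0 in all replicates (13.3%), and the median was -0.11, against 0.00 off the arm. This list and those below were drawn from the arm, so the share of all genes does not set a list apart from the other members.

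Of the adhesion and cytoskeleton list, 11 of 15 members were lower over both times (10.7% of all genes and 54.8% of all members). None was higher (10.8% of all genes), and the median was -0.14. ARHGAP12, a GTPase-activating protein, had log2 ratios of -0.36, -0.55 and -0.28 at 0 h and -0.78, -0.29 and -0.43 at 3 h, with a mean of -0.45 ± 0.07 (SE, n = 6, limma adjusted p = 0.00598) and -0.31 without the wide arrays. PARD3, a scaffold of cell polarity, had -0.32, -0.41 and -0.27 at 0 h and -0.32, -0.25 and -0.39 at 3 h. Its replicates lay close together, with a mean of -0.33 ± 0.03 (SE, n = 6, limma adjusted p = 0.00127) and -0.29 without the wide arrays. ARHGAP21, another GTPase-activating protein, had a mean of -0.21, but its forward arrays averaged 0.06 and its swapped arrays -0.48.

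Opposite signs by dye orientation also touched other adhesion and signalling members, which were chosen after their values were seen. VIM, the intermediate filament vimentin, averaged -0.78 on the forward and 0.37 on the swapped arrays. Its replicates were -0.18, 0.15 and 0.01 at 0 h and -1.02, -0.12 and -0.08 at 3 h. BAMBI, a decoy receptor of TGF-beta signalling, averaged -0.76 and 0.55, and ITGB1 0.04 and -0.37. None of VIM, BAMBI and ITGB1 passed the threshold over both times. Of the 86 lower members, 3 had averages of opposite sign by orientation: ARHGAP21, FBH1 (-0.55 forward and 0.14 swapped) and ABI1 (0.00 and -0.28).

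All 10 members of the mitochondria and metabolism list were lower over both times (10.7% of all genes and 54.8% of all members). The median was -0.22, and all 10 were below 0 in 6 of 6 replicates (13.3% of all genes). The list also holds SUV39H2 (-0.08), a histone methyltransferase that is not mitochondrial. MTPAP, the poly(A) polymerase of mitochondrial RNA, had log2 ratios of -0.23, -0.43 and -0.27 at 0 h and -0.77, -0.29 and -0.29 at 3 h, with a mean of -0.38 (limma adjusted p = 0.0108, n = 6) and -0.27 without the wide arrays. ECHDC3, a mitochondrial protein of the enoyl-CoA hydratase family, had a mean of -0.33 with values from -0.58 to -0.22. ATP5F1C, the gamma subunit of ATP synthase, had -0.15, -0.24 and -0.18 at 0 h and -0.85, -0.15 and -0.34 at 3 h. Its mean of -0.32 became -0.22 without 3 h replicate 1 and -0.20 without the wide arrays, and its call was lost without any of 0 h replicates 1, 2 and 3 or 3 h replicate 3.

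In the protein and RNA handling list, 9 of 13 members were lower over both times (10.7% of all genes and 54.8% of all members). None was higher (10.8% of all genes), and the median was -0.23. GTPBP4, a nucleolar GTPase needed to build the large ribosomal subunit, had log2 ratios of -0.23, -0.45 and -0.24 at 0 h and -0.50, -0.21 and -0.36 at 3 h, with a mean of -0.33 (limma adjusted p = 0.00501, n = 6) and -0.23 without the wide arrays. OPTN, an autophagy receptor, had a mean of -0.32, and -0.21 without the wide arrays. WDR37, a WD-repeat protein, had a mean of -0.27 and values from -0.42 to -0.20. NSUN6, also on the list, had no value here.

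In the transcription and chromatin list, 7 of 10 members were lower over both times (10.7% of all genes and 54.8% of all members). None was higher (10.8% of all genes), and the median was -0.20. ZMYND11, a reader of methylated histone H3.3, had the lowest mean of the arm, -0.50, but this rested on 1 array. Its replicates were -0.12, -0.25 and -0.09 at 0 h and -2.35, -0.07 and -0.14 at 3 h, the lowest array was at -4.50, and the mean did not pass (limma adjusted p = 0.283, n = 6). Without 3 h replicate 1 it was -0.13 and passed, and without the wide arrays it was -0.09 (limma adjusted p = 0.00202). EPC1, a subunit of the TIP60 histone acetyltransferase complex, had a mean of -0.28 with values from -0.47 to -0.12. COMMD3, put on this list though known for its part in endosomal sorting, had a mean of -0.24 with values from -0.37 to -0.14.

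All 5 genes of the zinc finger list were lower over both times (10.7% of all genes and 54.8% of all members). The median was -0.15, and all 5 were below 0 in every replicate (13.3% of all genes). ZNF248, ZNF25, ZNF33A and ZNF37A start between 37.76 and 38.09 Mb, and ZNF438 starts at 30.84 Mb, farther from the centromere. ZNF438 was the lowest of them at -0.25, with values from -0.33 to -0.18. The means of all 5 were smaller in size than those of FZD8 and PARD3.

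Of the lipid, steroid and peroxisome list, 3 of 9 members were lower over both times (10.7% of all genes and 54.8% of all members). None was higher (10.8% of all genes), and the median was -0.06. PHYH, the peroxisomal enzyme that begins the breakdown of phytanic acid, had log2 ratios of -0.25, -0.38 and -0.26 at 0 h and -0.44, -0.24 and -0.30 at 3 h, with a mean of -0.31 ± 0.03 (SE, n = 6, limma adjusted p = 0.00194). ACBD5, which tethers peroxisomes to the endoplasmic reticulum, had a mean of -0.22 and values from -0.29 to -0.03. IDI2, an isopentenyl diphosphate isomerase, had a mean of -0.14. The aldo-keto reductase AKR1C1, a steroid-metabolising enzyme with close paralogues on the arm, had -0.03 and AKR1E2 0.05, and neither passed. AKR1C2 had no value of its own.

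In the cell division list, all 4 members with a value were lower over both times (10.7% of all genes and 54.8% of all members). The median was -0.24, and all 4 were below 0 in 6 of 6 replicates (13.3% of all genes). MCM10, a replication factor on the same list, was left out by the rule. Whether FAM107B acts in cell division was not checked here. FAM107B had log2 ratios of -0.32, -0.56 and -0.29 at 0 h and -0.77, -0.34 and -0.43 at 3 h, with a mean of -0.45 ± 0.06 (SE, n = 6, limma adjusted p = 0.00498) and -0.32 without the wide arrays. CCNY, a membrane-bound cyclin, had a mean of -0.25 with values from -0.34 to -0.14. KIN, a nuclear protein tied to DNA replication, had a mean of -0.24, and its call was lost without 0 h replicate 2 or 3.

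Outside the lists, DIP2C, a member of the disco-interacting protein family, had the smallest SE among the 10 lowest named members. Its log2 ratios were -0.29, -0.38 and -0.28 at 0 h and -0.37, -0.33 and -0.36 at 3 h, with a mean of -0.33 ± 0.02 (SE, n = 6, limma adjusted p = 0.000544) and -0.30 without the wide arrays. MIR1915HG, a long non-coding RNA that hosts a microRNA, had -0.35, -0.55 and -0.35 at 0 h and -0.65, -0.24 and -0.41 at 3 h, with a mean of -0.42 ± 0.05 (SE, n = 6).

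Both members that were higher are non-coding. ST8SIA6-AS1, a transcript antisense to a sialyltransferase gene, had log2 ratios of 0.36, 0.53 and 0.35 at 0 h and 0.46, 0.37 and 0.40 at 3 h. All 6 values lay above those of every other named member except PPIAP30, with a mean of 0.41 ± 0.03 (SE, n = 6, limma adjusted p = 0.000844), a ratio of 1.33. PPIAP30, a cyclophilin pseudogene, had 0.26, 0.31 and 0.14 at 0 h and 0.17, 0.22 and 0.38 at 3 h, with a mean of 0.25 ± 0.03 (SE, n = 6, limma adjusted p = 0.00547). Its probe may also bind transcripts of near-identical cyclophilin copies elsewhere, so its value is uncertain. DIP2C-AS2, antisense to DIP2C, was above 0 in all replicates at a mean of 0.03 and did not pass.

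No member's ratio was found to differ between 0 h and 3 h of retinoic acid. The members' ratios at 3 h minus those at 0 h had a median of 0.00, against 0.02 on the long arm and 0.01 off the short arm. With limma, the effect at 3 h differed from that at 0 h for 0 members lower and 0 higher at an adjusted p under 0.05 (0.0% and 0.0% of all genes), and the smallest adjusted p among members was 0.718. At an unadjusted p under 0.05 there were 0 members lower (1.87% of all genes) and 4 higher (3.19%). The 4 were SFTA1P, SKIDA1, GPR158 and C10orf126, with differences of 0.15, 0.13, 0.11 and 0.08. Across members the mean ratios of both times had a Pearson's r of 0.76, against 0.58 for the other genes, as a description over genes. No array set treated against untreated RNA, so the data hold no measure of what retinoic acid does on its own.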

How the data were processed

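RNA of 6 pairs of knockdown and control cultures was measured on 12 2-colour arrays. The values the authors deposited are a score, read from the values as the signed fold of Cy5 against Cy3 with 2 decimals, in which a lower Cy5 signal gives a negative inverse. Per the submitters' processing notes limma was used, and the background correction and normalization are not given in the sources used here. No intensities were used, so no filter on background was possible and array number limits the precision.

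Ratios were turned to log2 and swapped arrays changed in sign. Of 41000 probes, 29341 had 1 gene symbol, 33 several and 11626 none in the platform annotation. Coordinates came from RefSeq (GRCh38.p14), matched by Entrez number or symbol. Probes of a gene, then both arrays of a replicate, were averaged. The fit without the wide arrays instead took single arrays as samples, with a term for dye. Models over all genes (limma 3.58.1, R 4.3.3, a coefficient per time, Benjamini-Hochberg, threshold 0.05) were tested on simulated data. Each SE is that of the fit. Replicates were taken on different days per the labels. Deviations of same-numbered replicates correlated at 0.04, -0.03 and -0.30. These values cannot decide whether numbers pair the replicates, because replicates are few and the wide arrays differ in replicate number between the times. The main fit had no replicate block, and counts with the block are given at the end.

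Named members are the 10 lowest and 5 highest of those with 1 sign in 6 of 6 replicates, 3 genes on either side of the break and of the limit, and up to 3 per role list with the largest absolute mean. Members, lists and the rule were chosen with earlier results of these data known. Alternatives covered dye orientation, wide arrays, scaling, probes, replicates, time points and the left-out genes.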

Additional observations from a re-analysis of the deposited data

Results flagged for a closer look

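APBB1IP, an adaptor between small GTPases and the actin cytoskeleton, was below 0 in every 0 h replicate (-0.09, -0.05 and -0.01) and above 0 in every 3 h replicate (0.02, 0.0047 and 0.04). The difference of 0.07 on the log2 scale did not pass when tested (limma adjusted p = 0.718), and it was the 1 member of 157 with opposite signs in all replicates of both times. Its 3 probes had means from -0.04 to 0.02.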

How the results depend on the processing

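The members' median stayed below 0 under every alternative run. From forward arrays alone it was -0.08 at 0 h and -0.08 over both times, and from genes with 1 probe -0.07 at 3 h. Leaving out 1 replicate gave -0.11 to -0.09 at 3 h. The break fell at 38.36 Mb on forward arrays, 38.38 Mb without the wide arrays, 35.64 Mb for genes with 1 probe, and 38.09 to 38.36 Mb leaving out a replicate. It stayed at 38.09 Mb without the left-out genes, an alternative chosen after seeing the data. The number of lower genes on the whole array is given in brackets after each count of members. Lower members at 0 h (51, 726 genes) numbered 11 on forward arrays (503 genes), 77 on swapped arrays (2045), 89 without the wide arrays (1833), 84 after quantile normalization (1528), 85 with arrays rescaled by width (1608), 22 of 91 for genes with 1 probe (419), and 0 to 78 leaving out a replicate (12 to 1347). At 3 h (58, 1075 genes) they numbered 20 on forward arrays (682) and 26 of 91 for genes with 1 probe (526). They numbered 0 with 3 h fitted alone by limma (0 genes) and 23 to 46 leaving out a replicate (268 to 686). Over both times (86, 1992 genes) they numbered 42 of 91 for genes with 1 probe (1064), where fewer genes were tested, and 63 to 88 leaving out a replicate (1047 to 2115). With limma and the replicate block, 0 members were lower at 0 h and 0 at 3 h (0 genes at either time). Over both times 63 members were lower (944 genes). The difference between times had 0 calls under every alternative. For the other changes the cause was not tested. Slide and scan date are not given in the sources used here.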
